A study of Mus musculus with 25 samples.

Results

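In mammary organoids of Brca1/P53-deficient mice, 10 genes of the NF-kB and TNF signalling pathway were described, out of 34866 genes in the deposited expression table. The 10 genes were listed by name, for their place in the pathway. They are the ligand Tnf, the receptors Tnfrsf1a and Tnfrsf1b, the receptor-bound adaptor Birc3, the subunits Nfkb1, Nfkb2 and Relb, the inhibitors Nfkbia and Tnfaip3, and the adhesion gene Icam1. All 10 passed the filter on low values in every comparison.

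NF-kB is a family of transcription factors that are held inactive in the cytoplasm by inhibitor proteins and enter the nucleus once a receptor signal has destroyed the inhibitor. TNF is one such signal, and NF-kB in turn switches on genes for its own inhibitors, which closes a feedback loop. The pathway is known for its part in inflammation and in the survival of lymphocytes, and in the mammary gland it is active in the epithelium during pregnancy and again when the gland regresses after lactation.

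Each of 5 groups held 5 libraries, 25 in all, and the labels give each library as a mouse of its own. All mice carried floxed Brca1 and P53 alleles deleted by a Cre that the cytokeratin 14 (K14) promoter drives, so the deletion is confined to cells that have used this promoter and the organoids were a mixture of deleted and intact cells. The groups were nulliparous mice, age-matched to the mice at 60 days after lactation and untreated; multiparous mice, which had gone through 2 pregnancies and lactations, untreated, at 1 day and at 60 days after weaning; and multiparous mice given cabergoline, at the same 2 times. Cabergoline, a dopamine agonist that lowers prolactin, was injected once into the abdominal cavity at weaning, and the labels give 0.2 mg per kg while the study's methods give a somewhat higher dose. The mice of the 60-day experiment were another set than those of the 1-day experiment, and ages at sampling are not reported here. Organoids are fragments enriched for epithelium that remain after enzymatic digestion of the gland, and total RNA depleted of ribosomal RNA was sequenced from them.

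Levels are given as TPM, the transcript share of a library per unit of transcript length, divided by a factor for each library (scaled TPM). These factors were 0.264 to 0.937 at 1 day and 1.12 to 2.00 in the other 15 libraries. The single gene Gm12895 held 28.0% to 56.8% of all TPM at 1 day and at most 10.5% in the other libraries. The libraries also differed in cell content. The summed level of 8 luminal epithelial markers ranged from 25.4 to 2733 scaled TPM, and that of 6 T cell markers from 12.0 to 1035, within groups as much as between them. The untreated 1-day library of replicate 3 stood apart: its 5 milk markers summed to 111 scaled TPM, against 98770 to 915100 in the other untreated 1-day libraries, and its luminal markers to 33.5. In the cabergoline-treated mice at 60 days, luminal markers summed to at most 246.6 scaled TPM in all 5 libraries, and in 4 of the 5 untreated 60-day libraries to at most 76.8, although the samples are labelled as organoids. Smaller cell numbers of a type and less RNA per cell cannot be told apart in such bulk samples. The number of sequenced fragments behind the values is unknown, since TPM keep no counts.

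For the 10 genes, the 300 bases from 250 before to 50 after the start of transcription were read from the RefSeq promoter table of GRCm38.p6. They were searched on both strands for the kappa B consensus, the motif that NF-kB dimers recognise. Of the 10 genes, 8 had an entry in the table, with 11 promoters in all. The consensus was found in at least 1 promoter of 3 of these 8 genes, Nfkbia, Tnfaip3 and Nfkb2, against 5.14% of the 27025 genes of the table. By promoter it was 5 of 11, of which 3 belong to Nfkb2 and 2 of these overlap and share a match, against 4.51% of 32851 promoters. No match was found in the promoters of Tnf, Tnfrsf1a, Tnfrsf1b, Icam1 and Birc3. One promoter of each of the 3 genes, chosen because they held a match, is printed 5′ to 3′ on the gene's strand, with the matches in capitals. The Nfkbia promoter (chr12:55492598-55492897, minus strand) held 1 match, with its first base 29 bases before the start. The Tnfaip3 promoter (chr10:19015361-19015660, minus strand) held 2, at 125 and 12 bases before the start. The Nfkb2 promoter (chr19:46304487-46304786, plus strand) held overlapping matches at 39 and 38 bases before the start and a further one at 11 bases. A match describes the letters and does not show that a factor binds there.
Nfkbia: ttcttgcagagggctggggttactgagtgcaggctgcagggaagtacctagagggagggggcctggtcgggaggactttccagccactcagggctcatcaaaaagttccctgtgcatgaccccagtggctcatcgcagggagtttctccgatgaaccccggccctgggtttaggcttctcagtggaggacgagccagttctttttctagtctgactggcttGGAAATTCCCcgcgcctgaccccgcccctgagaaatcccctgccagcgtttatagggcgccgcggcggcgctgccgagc
Tnfaip3: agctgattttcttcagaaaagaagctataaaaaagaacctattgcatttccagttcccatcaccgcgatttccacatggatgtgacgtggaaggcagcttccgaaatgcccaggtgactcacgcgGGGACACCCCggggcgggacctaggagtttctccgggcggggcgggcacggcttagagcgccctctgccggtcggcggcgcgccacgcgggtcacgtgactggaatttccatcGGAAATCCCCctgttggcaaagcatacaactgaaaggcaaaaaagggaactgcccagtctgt
Nfkb2: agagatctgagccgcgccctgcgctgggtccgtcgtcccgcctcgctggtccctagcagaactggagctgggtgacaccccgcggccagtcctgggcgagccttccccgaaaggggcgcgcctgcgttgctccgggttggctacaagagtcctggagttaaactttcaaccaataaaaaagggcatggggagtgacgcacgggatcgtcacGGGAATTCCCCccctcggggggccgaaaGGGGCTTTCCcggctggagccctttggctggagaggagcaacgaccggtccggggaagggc

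Nfkbia encodes IkB alpha, the inhibitor that holds NF-kB in the cytoplasm and is made again under NF-kB's own control (chr12:55489410-55492647). Its level was 74.9, 173, 169, 97.2 and 68.0 scaled TPM in the untreated mice at 1 day (replicates 1 to 5) and 87.8, 86.5, 82.9, 112 and 142 in the cabergoline-treated mice at 1 day. At 60 days it was 270.4, 211, 146, 194 and 217 in the untreated mice and 204, 160, 118, 268 and 188 in the treated mice. The nulliparous mice held 116, 176, 144, 166 and 154. Nfkbia was thus among the most abundant and least variable of the 10, with 3.98 times between its lowest and highest library, and 7 of the 10 libraries at 1 day lay below every library at 60 days.

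Tnfaip3 encodes A20, a ubiquitin-editing enzyme that shuts off signalling from TNF receptors to NF-kB (chr10:19000910-19015657). It varied the most of the 10, by 95.7 times between its lowest and highest library. At 1 day it was 2.82, 41.6, 48.5, 5.82 and 1.51 scaled TPM in the untreated mice and 3.18, 16.6, 4.38, 25.3 and 34.2 in the treated mice. At 60 days it was 94.2, 17.8, 18.5, 43.2 and 144 in the untreated mice and 94.6, 65.0, 18.3, 74.6 and 77.0 in the treated mice. The nulliparous mice held 33.1, 58.8, 43.7, 15.7 and 31.2, so the 5 libraries at 5.82 scaled TPM or less were all from 1 day, 3 untreated and 2 treated.

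Icam1 encodes an adhesion receptor of endothelium, leukocytes and epithelium that binds leukocyte integrins and is a well-known target of NF-kB (chr9:21015985-21028817). At 1 day it was 14.1, 53.4, 65.2, 12.4 and 12.5 scaled TPM in the untreated mice and 9.84, 27.7, 13.7, 29.2 and 43.8 in the treated mice. At 60 days it was 126, 48.0, 40.7, 56.7 and 91.6 in the untreated mice and 110, 76.7, 40.5, 88.5 and 85.3 in the treated mice. The nulliparous mice held 32.1, 70.3, 74.3, 43.7 and 74.4. The 5 treated libraries at 60 days thus lay above 4 of the 5 treated libraries at 1 day, and only the highest 1-day library reached into their range.

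Tnf encodes the cytokine itself, which activated leukocytes secrete (chr17:35199381-35202007). Its transcript was low throughout, 0.895 to 6.53 scaled TPM over the 25 libraries. Group means were 2.50 ± 1.20 in nulliparous mice, 3.04 ± 2.61 in untreated and 3.34 ± 2.06 in treated mice at 1 day, and 3.36 ± 1.77 in untreated and 3.90 ± 1.30 in treated mice at 60 days (SD, n = 5 each). Each of these means lay between the lowest and the highest library of every group.

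Tnfrsf1a encodes TNF receptor 1, which most cell types carry and which can signal both to NF-kB and to cell death (chr6:125349362-125362484). Its ratio of highest to lowest library, 3.94, was close to that of Nfkbia. At 1 day it was 116, 45.9, 36.0, 116 and 129 scaled TPM in the untreated mice and 104, 80.5, 101, 82.5 and 65.6 in the treated mice. At 60 days it was 64.2, 142, 90.8, 62.8 and 42.9 in the untreated mice and 48.7, 44.3, 71.8, 78.3 and 46.8 in the treated mice. In the nulliparous mice, at 43.7, 46.0, 52.0, 97.2 and 90.5, the 2 highest libraries were those with the highest luminal marker level of the group.

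Tnfrsf1b encodes TNF receptor 2, which is found mainly on lymphocytes, other leukocytes and endothelium (chr4:145213463-145246870). At 1 day it was 5.07, 37.7, 49.8, 5.46 and 5.38 scaled TPM in the untreated mice and 4.51, 19.2, 5.74, 23.8 and 32.4 in the treated mice. At 60 days it was 76.8, 8.07, 15.9, 32.0 and 55.5 in the untreated mice and 65.5, 47.1, 21.3, 39.3 and 43.1 in the treated mice. The nulliparous mice held 18.5, 43.9, 33.6, 12.3 and 20.4, so low and high libraries occurred among nulliparous, 1-day and 60-day mice alike. The library with the most Tnfrsf1a of all, untreated replicate 2 at 60 days, had the least Tnfrsf1b of its group.

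Birc3 encodes cIAP2, a ubiquitin ligase bound to TNF receptor complexes that favours NF-kB signalling and cell survival (chr9:7848699-7873186). At 1 day it was 79.7, 333, 338, 78.0 and 106 scaled TPM in the untreated mice and 68.7, 201, 71.0, 188 and 255 in the treated mice. At 60 days it was 319, 133, 92.0, 178 and 412 in the untreated mice and 352, 369, 153, 341 and 433 in the treated mice, 4 of which lay at 341 or above. The nulliparous mice held 71.8, 370.4, 305, 93.2 and 130.1. Birc3 had the highest mean of the 10 genes in every group, on this per-length scale.

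The 3 subunit genes varied alike from library to library. Nfkb1 (chr3:135584655-135691547), which encodes the precursor of p50, ranged from 48.5 to 153 scaled TPM over the 25 libraries. Nfkb2 (chr19:46304320-46312385), which encodes the precursor of p52, ranged from 12.9 to 102. Relb (chr7:19606217-19629438), the partner of p52 in the non-canonical branch of the pathway, ranged from 8.69 to 136. With group means removed, Pearson's r on the log2 scale over the 15 libraries of nulliparous and 60-day mice was 0.96 between Nfkb1 and Nfkb2, 0.88 between Nfkb2 and Relb and 0.86 between Nfkb1 and Relb. These are descriptions, since the libraries share differences in cell content.

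**Figure D1:**
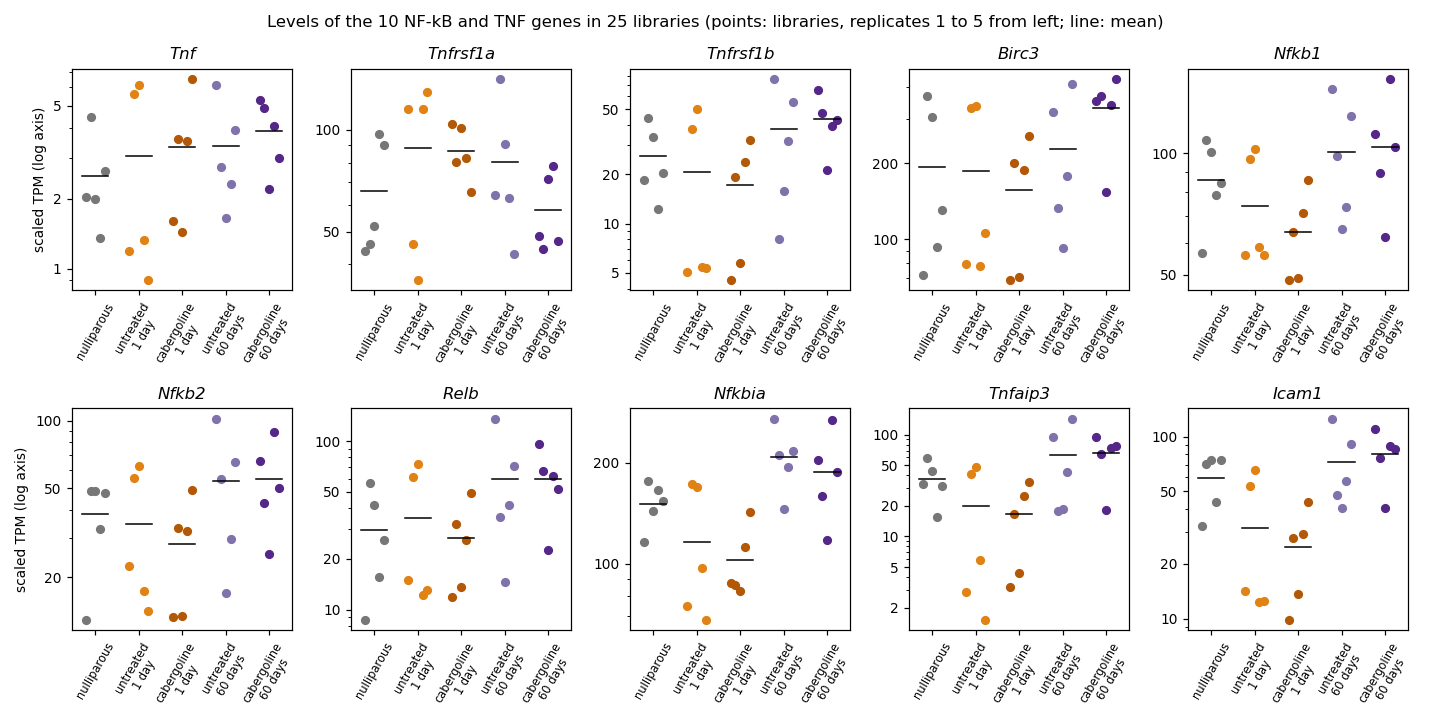
Level of each of the 10 genes in scaled TPM (log axis) in the 5 groups, with 1 point per library, replicates 1 to 5 from left to right, and the mean as a line. Neighbouring groups overlap for every gene, and at 1 day most genes fall into high and low libraries in both arms, as for Tnfrsf1b with 4.51 to 5.74 against 19.2 to 49.8.

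Ordered by group mean, the treated mice at 60 days were highest for 8 of the 10 genes. Nfkbia was highest in the untreated mice at 60 days, with 207.6 ± 44.9 scaled TPM (SD, n = 5), and Tnfrsf1a was highest in the untreated mice at 1 day, with 88.5 ± 43.9. The treated mice at 1 day were lowest for 8 genes. Tnf was lowest in the nulliparous mice, and Tnfrsf1a was lowest in the treated mice at 60 days, with 58.0 ± 15.8. For every gene and every pair of neighbours in these orders the ranges of the libraries overlapped, so no step of an order exceeded the spread within groups.

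The comparison of treated with untreated mice at 1 day asks what a single dose had changed a day after weaning. None of the 10 genes was called, with a Benjamini-Hochberg adjusted p of 0.05 or less from limma taken as a call. No gene of the table was called either (0 of 14733 genes, 0%), while 136 genes were higher and 151 lower at an unadjusted p under 0.05, none of them a member. The log2 fold changes of the members on log2(scaled TPM + 1) ran from -0.20 for Nfkb2 to 0.28 for Tnfaip3, with 4 positive and 6 negative and a median of -0.12, against 0.02 over all genes tested. The number of positive members rested on single libraries: it was 8 without treated replicate 1 or 3, 7 without untreated replicate 2 or 3, 2 without untreated replicate 1 or 5 or treated replicate 2 or 4, and 1 without treated replicate 5. Their standard errors were wide, 0.24 for Nfkb1 and 0.98 for Tnfaip3, so that changes of some size in either direction would not have been detected. On TPM as deposited all 10 differences were positive, again without a call, and the median of all genes moved to 0.33 there. All 54 tested genes of a wider list of 62 pathway genes (ligands, receptors, adaptors, kinases, subunits, inhibitors and targets) missed the threshold too, with 27 positive and 27 negative values. Its 3 most abundant genes, the chemokine gene Ccl5, the transcription factor gene Irf1 and Tnip1, which encodes a partner of A20, had log2 fold changes of 0.51 (SE 1.55), 0.02 (SE 0.58) and 0.25 (SE 0.73).

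The 1-day libraries differed in lymphocyte content, in both arms. Of the 10 libraries, 5, untreated replicates 2 and 3 and treated replicates 2, 4 and 5, had T cell markers summing to 358 to 796 scaled TPM and B cell markers summing to 186 to 590. The other 5 had 17.0 to 32.8 and 4.22 to 11.8. In the first 5, Tnfaip3 was 16.6 to 48.5, against 1.51 to 5.82 in the other 5. Tnfrsf1b was 19.2 to 49.8 against 4.51 to 5.74, Birc3 was 188 to 338 against 68.7 to 106, and Tnf was 3.54 to 6.53 against 0.895 to 1.60. The same division without overlap was seen for Icam1, Nfkb1, Nfkb2 and Relb, and Nfkbia overlapped slightly, with 86.5 to 173 against 68.0 to 97.2. Tnfrsf1a went the other way, 36.0 to 82.5 against 101 to 129. The luminal marker level was 33.5 to 1271 in the first 5 and 1350 to 2733 in the other 5. Basal epithelial markers (66.1 to 389 against 401 to 892) and adipocyte markers (158 to 338 against 592 to 740) divided the same libraries without overlap, as did the scaling factor (0.603 to 0.937 against 0.264 to 0.458) and the count of genes detected at 1 TPM (15238 to 16570 against 11764 to 14179). Macrophage markers overlapped, with 146 to 201 against 144 to 199. Which of these the members follow was not tested. The share of all genes that divide these libraries likewise was not counted, so the division is not read as a trait of the members. As the libraries form separate clusters, no correlation over these 10 libraries is read as a relation, and these 2 sets of samples were read from the data and are not groups of the study.

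In the other 15 libraries, those of nulliparous mice and of mice at 60 days, the T cell level varied without such a gap. The level of Tnfrsf1b followed the T cell marker level with Pearson's r of 0.95 and Spearman's rho of 0.93 on the log2 scale (n = 15, permutation p = 1e-05 for both, the smallest that 100000 resamples can give, two-sided, adjusted p of 0.0001 and 0.0002 over the 20 relations computed). Without the 2 libraries farthest from the median T cell level, r was 0.92. For Tnfaip3 r was 0.88 and rho 0.88 (n = 15, permutation p = 1e-05 and 2e-05, adjusted p of 0.0001 and 0.0002), and r was again 0.88 without the 2 farthest libraries. Tnfrsf1a fell as the T cell level rose, with r of -0.86 and rho of -0.82 (n = 15, permutation p = 4e-05 and 0.00028, adjusted p of 0.000267 and 0.00137) and r of -0.72 without the 2 farthest.

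The permutations ran over all 15 libraries without regard to group, and the share of all genes related as closely was not counted. With group means removed, r with the T cell level was 0.95 for Tnfrsf1b, 0.89 for Tnfaip3 and -0.88 for Tnfrsf1a over these 15 libraries. It was 0.80 for Birc3, 0.70 for Relb, 0.69 for Icam1 and 0.67 for Tnf. It was lower for Nfkb1 at 0.44, Nfkb2 at 0.37 and Nfkbia at 0.28. Without the removal, Nfkb1, Nfkb2 and Nfkbia had r of 0.47, 0.41 and 0.27. They missed the threshold (permutation test, adjusted p of 0.108, 0.162 and 0.336). Birc3, Relb, Icam1 and Tnf passed it (permutation test, adjusted p of 0.00104 to 0.00962). With group means removed, the T cell list was the closest marker list for Tnfrsf1b and Tnfrsf1a. For each other member another list was closer. After the same removal, r with the basal epithelial level was -0.93 for Tnfaip3, -0.90 for Tnfrsf1b, -0.88 for Birc3, -0.78 for Relb, -0.77 for Icam1 and -0.74 for Tnf. With the skeletal muscle level r was -0.67 for Nfkb1 and for Nfkb2 and -0.61 for Nfkbia. Against the luminal marker level, Tnfrsf1a had r of 0.84 and Tnfrsf1b r of -0.88. The relation of Tnfrsf1a with the luminal level without removal, r of 0.64, dropped to 0.30 without the 2 libraries farthest from the median and so rests on these. The marker lists vary together over these libraries, and which cells the members' transcripts come from was not tested.

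**Figure D2:**
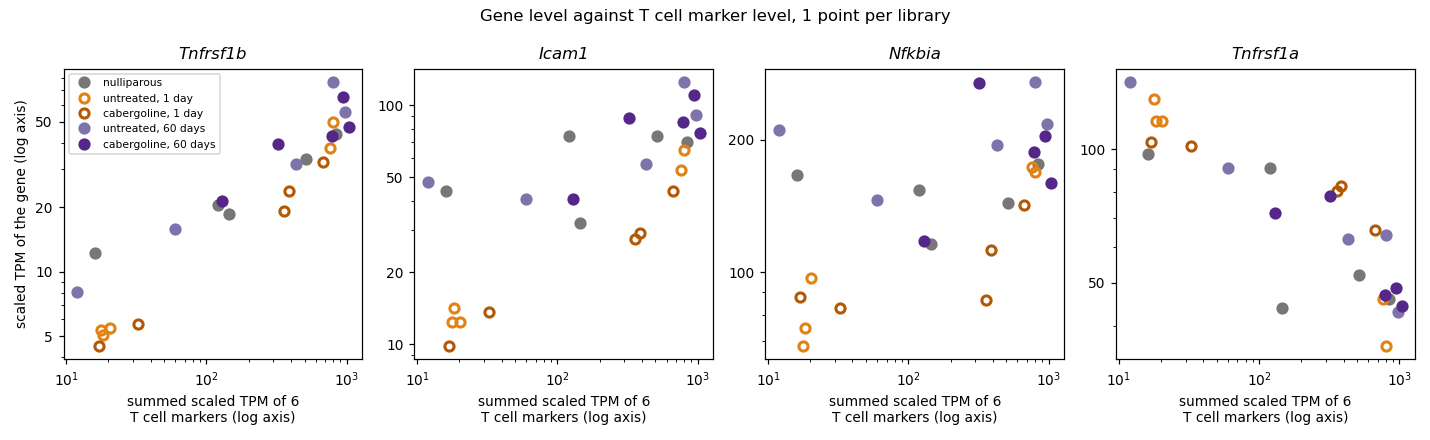
Level of Tnfrsf1b, Icam1, Nfkbia and Tnfrsf1a in scaled TPM against the summed scaled TPM of 6 T cell markers (both axes log), with 1 point per library and open points for 1 day. Tnfrsf1b rises and Tnfrsf1a falls along the T cell level. Icam1 lies at 9.84 to 14.1 in the 1-day libraries with T cell levels of 17.0 to 32.8. It lies at 32.1 or more in all nulliparous and 60-day libraries. Of these, only nulliparous replicate 4 and untreated 60-day replicate 2 have so low a T cell level (16.1 and 12.0).

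The comparison of treated with untreated mice at 60 days asks what remained of the treatment long after weaning. No member was called, and no gene of the table was (limma, 0 of 17644 genes, 0%), with 106 genes higher and 107 lower at an unadjusted p under 0.05 and no member among them. Of the members, 8 had a positive and 2 a negative difference, with a median log2 fold change of 0.21 against 0.00 over all genes. The largest was that of Birc3, 0.67 (SE 0.44, adjusted p = 1.00), and Tnfrsf1a was the lowest, at -0.39 (SE 0.32). The number of positive members was 5 without untreated replicate 3, 6 without treated replicate 4 and 7 without untreated replicate 4. It stayed at 8 without any other single library. T cell markers summed to a median of 791 scaled TPM in the treated and 431 in the untreated mice. With the T cell level as a covariate, an alternative chosen after seeing the data, 2 of the 10 differences were positive, those of Birc3 at 0.26 and Tnf at 0.01, which were also positive without it. As the marker lists vary together, this covariate does not single out T cells. The part of cell content in these differences was not tested. Of the wider list, 61 genes were tested and none was called, and 38 of the differences were positive with a median of 0.12. Ccl5, Irf1 and Tnip1 had log2 fold changes of 0.31 (SE 1.27), 0.21 (SE 0.35) and 0.47 (SE 0.59).

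Both 60-day groups were compared with the nulliparous mice, which serve as the reference in both comparisons. In untreated mice all 10 members had a higher mean than in nulliparous mice on the log2 scale, with a median log2 fold change of 0.30 against -0.05 over all genes, and none was called (limma, 0 of 17960 genes, 0%, with 144 genes higher and 297 lower at an unadjusted p under 0.05). In treated mice 9 members were positive with a median of 0.52 against -0.04 over all genes, and none was called (0 of 18077 genes, 0%, with 213 higher and 683 lower at an unadjusted p under 0.05). Relb was the member with the largest difference in both, 0.90 (SE 0.62) in untreated and 1.12 (SE 0.51) in treated mice, and in the latter it had an unadjusted p of 0.0487 and an adjusted p of 0.889. Its 5 libraries were 8.69, 56.6, 41.8, 15.6 and 25.9 scaled TPM in nulliparous mice and 96.8, 66.1, 22.6, 62.3 and 52.2 in treated mice at 60 days. T cell markers summed to a median of 145 scaled TPM in nulliparous, 431 in untreated and 791 in treated mice at 60 days. Luminal markers summed to 497, 49.97 and 112. With the T cell level as a covariate, chosen after seeing the data, all 10 members were positive in both comparisons and none was called. The log2 fold changes then ran from 0.19 for Nfkb1 to 0.84 for Relb in untreated mice. In treated mice they ran from 0.09 for Nfkb1 to 0.53 for Relb. The part of other cell types in these differences was not tested. Nfkbia differed by 0.44 (SE 0.22, unadjusted p = 0.0723 from limma) between untreated and nulliparous mice. Of the wider list, 61 genes were tested in each comparison with no call, with a median of 0.11 in untreated and 0.23 in treated mice. Irf1 differed from nulliparous mice by 0.50 (SE 0.27) in untreated and 0.71 (SE 0.33) in treated mice, Tnip1 by 0.43 (SE 0.66) and 0.90 (SE 0.55), and Ccl5 by 0.83 (SE 1.20) and 1.14 (SE 1.15).

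The 60-day and 1-day mice were compared within each arm. This contrast joins involution with the set of mice, and the factors that scale the libraries differ most between its sides, so time, experiment and sample content cannot be told apart in it. In untreated mice 201 of 16312 genes were called (1.23%; 52 higher and 149 lower at 60 days) and none of the members was, although 3 of them were higher at an unadjusted p under 0.05 (limma). These were Nfkbia with 0.91 (SE 0.31, adjusted p = 0.148), Icam1 with 1.43 (SE 0.54, adjusted p = 0.184) and Tnfaip3 with 2.14 (SE 0.95, adjusted p = 0.243). With the T cell level as a covariate, Tnfaip3 and Icam1 were called at adjusted p of 0.0495 and 0.0496 (limma). That fit called 828 of 16312 genes, against 201 in the main fit. Of 58 tested genes of the wider list, 1 was called, 1.72% against the 1.23% of all genes. Sele, which encodes E-selectin, an adhesion molecule of activated endothelium and a target of NF-kB, was 0.581 to 2.05 scaled TPM at 1 day and 5.33 to 42.3 at 60 days, without overlap, with a log2 fold change of 2.48 (SE 0.50, adjusted p = 0.0474). Endothelial markers summed to 235 to 335 scaled TPM at 1 day and to 249.9 to 1538 at 60 days, and their part in the difference was not tested.

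In the cabergoline-treated mice 3 of the 10 members were called higher at 60 days than at 1 day, where 3604 of 16457 genes (21.9%) were called, 1682 higher and 1922 lower. Icam1 rose by a log2 fold change of 1.76 (SE 0.40, adjusted p = 0.0123), from a mean of 24.8 ± 13.6 to 80.2 ± 25.4 scaled TPM (SD, n = 5 each). Tnfaip3 rose by 2.19 (SE 0.66, adjusted p = 0.038), from 16.7 ± 13.4 to 65.9 ± 28.7. Nfkbia rose by 0.85 (SE 0.24, adjusted p = 0.0296), from 102 ± 25.1 to 188 ± 55.9. All 3 ranges overlapped between the times. The share of members called, 3 of 10, is read against the 21.9% of all genes. The median log2 fold change was 1.09 over the members and 0.11 over all genes.

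The other 7 members missed the threshold. Tnfrsf1b had 1.54 (SE 0.52, adjusted p = 0.0569), Birc3 1.19 (SE 0.43, adjusted p = 0.07), Relb 1.19 (SE 0.45, adjusted p = 0.0792), Nfkb1 0.67 (SE 0.25, adjusted p = 0.0761) and Nfkb2 0.99 (SE 0.42, adjusted p = 0.115). Tnf differed by 0.26 (SE 0.34, adjusted p = 0.609). Tnfrsf1a was the only member with a negative value, -0.59 (SE 0.21, adjusted p = 0.0617), and this sign depends on the scaling: on TPM as deposited, where the median of all genes was 1.42, it was 0.96 and called.

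T cell markers summed to 17.0 to 672 scaled TPM in the treated mice at 1 day and to 129 to 1035 at 60 days, while luminal markers summed to 539 to 1791 and 30.5 to 246.6. With the T cell level as a covariate, Icam1 kept a log2 fold change of 1.13 (adjusted p = 0.00483) and Tnfaip3 one of 1.11 (adjusted p = 0.0224), while Nfkbia at 0.65 missed the threshold (adjusted p = 0.0864). Tnfrsf1b, at 0.67, was called under this covariate (limma, adjusted p = 0.0282). The fit with the covariate called 3100 of 16457 genes, against 3604 in the main fit. The covariate covers T cells only. Endothelial markers, at 193 to 340.3 scaled TPM at 1 day and 357 to 1996 at 60 days, were not in the fit. The calls rested on single libraries in part. Without 1 library at a time, the number of members called ranged from 1 to 8. It was 8 without replicate 3 at 60 days, where 4077 of 15621 genes were called. It was 7 without replicate 5 at 1 day, where 3814 of 16156 genes were called. Only Icam1 stayed past the threshold throughout, with adjusted p (limma) from 0.0063 to 0.0367 over all runs without 1 library. It was the single member called without replicates 1, 2 or 3 at 1 day and without replicates 1 or 5 at 60 days.

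**Figure D3:**
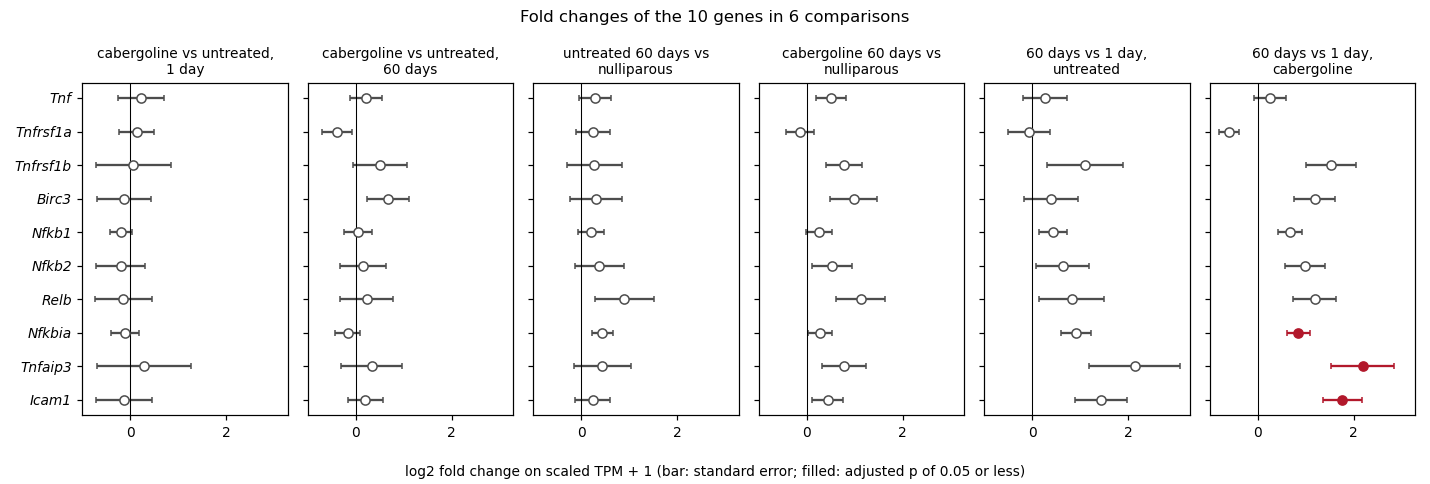
Log2 fold change of the 10 genes on log2(scaled TPM + 1) with its standard error in 6 comparisons, filled where the adjusted p was 0.05 or less. The 3 filled points are Icam1, Tnfaip3 and Nfkbia in treated mice at 60 days against 1 day, and in both comparisons of treated with untreated mice the values lie near 0 against their errors.

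The rise from 1 day to 60 days was not shown to differ between the arms. In the interaction of treatment and time no member and no gene was called (limma, 0 of 18232 genes, 0%, with 98 genes higher and 159 lower at an unadjusted p under 0.05). The difference of the 2 changes was 0.33 (SE 0.70) for Icam1, 0.05 (SE 1.22) for Tnfaip3, -0.07 (SE 0.39) for Nfkbia and 0.80 (SE 0.74) for Birc3, the largest. Tnfrsf1a had -0.52 (SE 0.50).

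Of 58 tested genes of the wider pathway list, 16 were called in treated mice between the times (27.6%, against 21.9% of all genes), 8 higher and 8 lower at 60 days, with a median log2 fold change of 0.39. The lower calls depend on the scaling. On TPM as deposited, 7 of the 8 lower genes turned positive and only Tnfrsf12a stayed lower. The median of all genes was 1.42 there, so values moved up. The 8 higher genes stayed higher, which this move gives in any case, so it does not check them. Tnfrsf12a, the receptor of the TNF family ligand TWEAK, was 42.0 to 129 scaled TPM at 1 day and at most 15.4 at 60 days, with 1 library listed at 0. It fell by 4.50 on the log2 scale (SE 0.64, adjusted p = 0.00114).

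Relative to the scaled libraries, other receptors fell as well. Ltbr, the lymphotoxin beta receptor that feeds the non-canonical branch, was 34.0 to 65.9 scaled TPM at 1 day and 10.9 to 24.9 at 60 days, a fall by 1.41 on the log2 scale (SE 0.27, adjusted p = 0.00595). On TPM as deposited Ltbr was higher at 60 days, by 0.11. Tnfrsf11a, which encodes RANK, fell and turned positive in the same way. Cd40, a receptor of B cells and antigen-presenting cells, was called higher.

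Among the ligands only Tnfsf10, which encodes TRAIL, was called. It was 5.26 to 7.90 scaled TPM at 1 day and 12.4 to 20.4 at 60 days, without overlap, and rose by 1.09 (SE 0.20, adjusted p = 0.00462). Of the adaptors, Traf2, which joins TNF receptors to the kinase complex, rose by 0.85 (SE 0.23, adjusted p = 0.0233), and Tradd rose too. Of the kinases, Ikbkb, which encodes the catalytic IKK beta, rose. Myd88 among the adaptors, Ikbkg among the kinases and Bcl3 among the inhibitors were called lower, and all 3 turned positive on TPM as deposited.

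Of 15 tested target genes, 5 were called (33.3%, against 21.9% of all genes). Sele rose by 1.56 (SE 0.39, adjusted p = 0.0183), and Irf1 and Vcam1, an adhesion gene of endothelium, rose as well. Bcl2l1, which encodes the survival factor Bcl-xL, was 51.6 to 81.3 scaled TPM at 1 day and 28.2 to 42.6 at 60 days and fell by 0.94 (SE 0.17, adjusted p = 0.00406). On TPM as deposited Bcl2l1 was higher at 60 days, by 0.60. Cxcl2, a chemokine for neutrophils, was called lower and was likewise higher on TPM as deposited. Endothelial markers summed to 193 to 340.3 scaled TPM at 1 day and 357 to 1996 at 60 days, and the part of cell content in these changes was not tested. None of these list genes was called in the comparisons of treated with untreated mice.

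**Figure D4:**
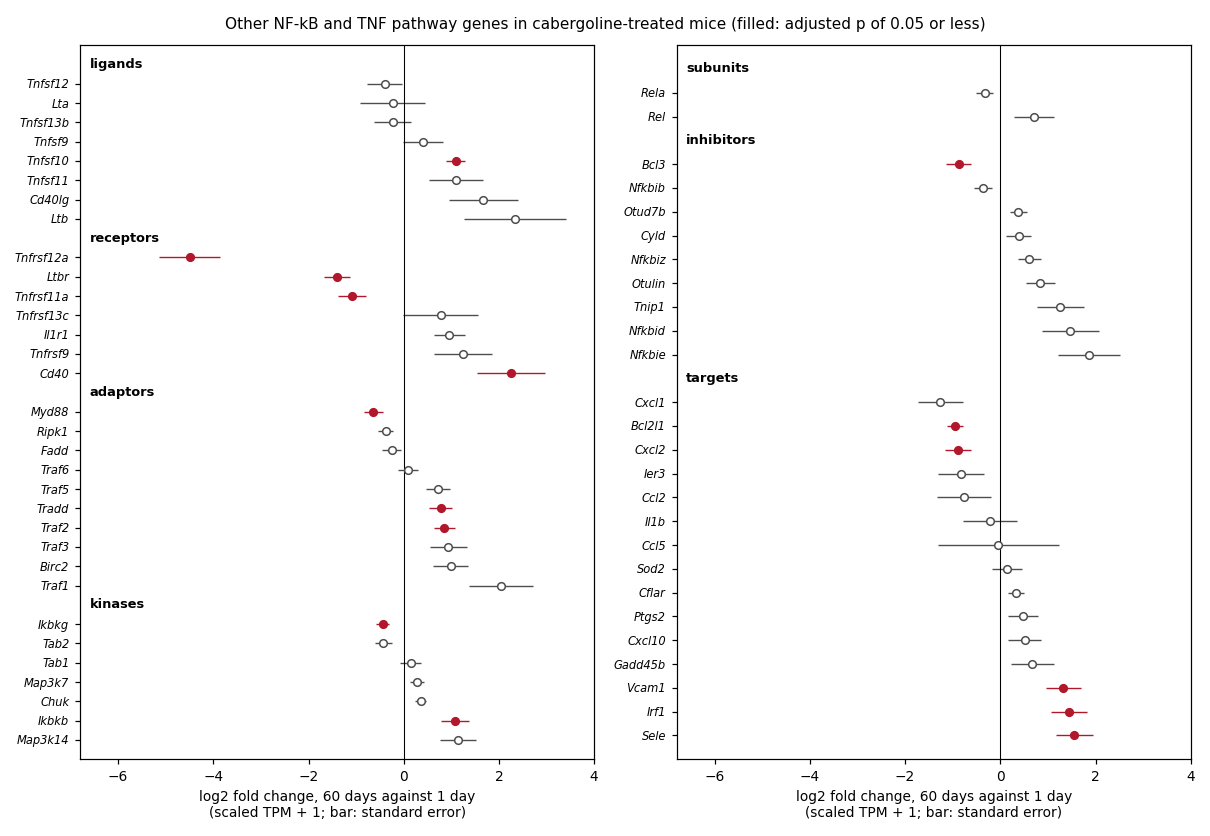
Log2 fold change with its standard error of the 58 tested genes of the wider pathway list in cabergoline-treated mice, 60 days against 1 day, by role, filled where the adjusted p was 0.05 or less. There are 16 filled points, 8 on either side of 0, with Tnfrsf12a the lowest at -4.50, and 7 of the 8 lower ones turn positive on TPM as deposited.

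The 3 genes whose levels followed each member most closely were chosen over the 25 libraries, after removal of group means on the log2 scale, among 13348 genes at 1 TPM or more in at least 20 libraries. Since the 1-day libraries form clusters, the r printed here is that over the other 15 libraries. For Tnfrsf1b the genes were Il2rg, Itgb7 and Tcf7, each with r of 0.98. Il2rg encodes the shared receptor chain of several lymphocyte cytokines and Tcf7 a transcription factor of T cells. For Tnfaip3 they were Emb, Mthfd1l and Arl5c, with r of 0.96, 0.97 and 0.95. Icam1 was followed by Nfkbie, another IkB inhibitor gene from the wider list, by H2-Q10 and by Sh3bp1, each with r of 0.96.

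Relb was followed by Arhgef1 with 0.97 and by Gtpbp1 and Ccdc88b with 0.98, and Birc3 by Dennd2d, Dnajc7 and Was, each with 0.96. Nfkb1 had Rfx1 with 0.97 and Coro7 and Nfkb2 itself with 0.96, so a member was among its 3 closest genes. Nfkb2 had Psd with 0.99, Sirt7 with 0.96 and Ddx39b with 0.97. Nfkbia was followed by Prkag1 with 0.90, Ddx39b with 0.94 and Mink1 with 0.91. Tnf had Izumo4 with 0.91, Tnfrsf14, a TNF receptor family member, with 0.85 and Thada with 0.84.

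Tnfrsf1a was followed by Agrn, Stk25 and Plscr3, with r of 0.98, 0.96 and 0.96. Over the 15 libraries its r with the other members ran from -0.77 with Tnfrsf1b and -0.75 with Tnfaip3 to values near 0 with Nfkb1 (-0.13), Nfkb2 (-0.01) and Nfkbia (0.02). Among the other 9 members r was positive for every pair and lay between 0.47 for Nfkbia with Tnfrsf1b and 0.96 for Nfkb1 with Nfkb2. These values describe how libraries vary and carry no p, since all genes share the libraries and their cell content.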

How the data were processed

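The deposited file held TPM for 34866 genes in 25 libraries, each summing to 1000000. Per the labels and the study's methods, the authors quantified the libraries with Salmon v0.9.1 on GRCm38 and passed them through RaNA-seq; the annotation release is not given in the sources used here. Gene symbols were found for 34582 IDs. TPM were divided by median-of-ratios factors over 9778 genes at 1 TPM or more in all libraries. log2(scaled TPM + 1) was tested with limma 3.58.1 in R 4.3.3 for genes at 1 TPM or more in at least 5 libraries of a comparison, with only its groups in the fit and no block, and p-values were adjusted over all genes tested (Benjamini-Hochberg, threshold 0.05). Fold changes on this scale understate the change of low genes. The test was also run on simulated data with 200 changed genes and independent noise for each gene. Genes in these libraries vary together, so that run does not show how the test behaves on them. Correlations used permutation tests in scipy 1.17.1. Depth is unknown, so no intervals from counts were made. The limma p-values measure the spread between mice. Those of the correlations come from permuting libraries without regard to group.

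The members and lists were chosen with earlier results of these data known. Named genes were all 10 members; of the wider list, the called genes, at most 6 with full values, or the 3 most abundant where none was called; and for each member its 3 closest genes. Alternatives were TPM as deposited, factors within a comparison, quantile normalization, a pseudocount of 0.1, no filter, a filter of 5 TPM, all libraries in 1 fit, a replicate block and each library left out. The T cell level as a covariate was added after seeing the data.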

Additional observations from a re-analysis of the deposited data

How the results depend on the processing

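On TPM as deposited 12043 genes and all 10 members were called for 60 days against 1 day in untreated mice, and 12345 genes and 10 members in treated mice. The median of all genes moved to 1.61 and 1.42 there, and Tnfrsf1a reversed to log2 fold changes of 1.80 and 0.96. With all 25 libraries in 1 fit, 1389 genes and 1 member (Nfkbia, adjusted p = 0.033 from limma) were called between the times in untreated mice, and 2 genes in each comparison with nulliparous mice. Quantile normalization called 3664 genes and 5 members in treated mice between the times. The T cell level as a covariate, chosen after seeing the data, called 828 genes and 2 members in untreated mice. In treated mice it called 3100 genes and 3 members. In treated mice Tnfaip3 lost its call with all libraries in 1 fit (adjusted p = 0.0628) and with no filter (0.0633). Leaving out each library gave 44 to 508 genes (0 members) between the times in untreated mice (508 without the untreated 1-day library of replicate 3). In treated mice it gave 2065 to 4961 genes and 1 to 8 members. The run with 4961 genes called 3 members, and the run with 8 members called 4077 genes. Each other comparison had 0 to 1 genes and 0 members. No comparison had every correlation of the deviations of same-numbered mice above 0.1. The correlations were -0.59 to -0.15 for 60 days against 1 day in untreated mice. For treated against untreated mice at 60 days they were -0.33 to 0.68. These values cannot tell whether same-numbered mice shared a litter or a batch. With the replicate as a block, 7 genes and 0 members were called between the times in untreated mice, and 2965 genes and 4 members in treated mice, Birc3 joining (adjusted p = 0.0307 from limma); no other call of a member changed. The unknown depth leaves the error of Tnf, the lowest member, open.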
